A study of Homo sapiens with 16 samples.

Results

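The genes described here encode MEIS1, PBX2 and PBX3, homeodomain proteins of the TALE class that bind DNA together with HOX proteins. They were chosen by symbol from a list of 8 genes (HOXA5, HOXA7, HOXA9, HOXA10, HOXB4, MEIS1, PBX2 and PBX3), and every probe set whose platform annotation gave exactly 1 of those symbols was taken. This gave 3 of 12626 probe sets, 40763_at for MEIS1, 38295_at for PBX2 and 32696_at for PBX3. No probe set in the annotation used here carried the symbols of the other 5 genes, HOXA5, HOXA7, HOXA9, HOXA10 and HOXB4, and these were not analysed here. The 546 probe sets with several symbols did not carry them either, and the 1119 with no symbol could not be matched. All values concern U937, an established human leukaemia line of monocytic character, in which a tetracycline-controlled promoter drives the leukaemia fusion protein AML1-ETO.

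All 16 samples came from cells carrying that construct, and the groups differed in induction and time. Controls were sampled at 0, 24, 48 and 72 h and AML1-ETO-induced cells at 12, 24, 48 and 72 h, with 2 replicates in each of the 8 groups. Total RNA was measured on Affymetrix U95Av2 arrays, which report 1 intensity per probe set. The labels name 1 cell line and do not say whether replicates were separate cultures, so the p-values rest on a spread that may be only technical. In bulk RNA, fewer cells carrying a transcript and less of it per cell cannot be told apart.

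PBX proteins bind DNA as dimers or trimers with HOX and MEIS proteins, and MEIS proteins help to keep PBX in the nucleus. High HOXA cluster and MEIS1 expression marks early haematopoietic progenitors and several acute myeloid leukaemias, and PBX3 is a partner of both in leukaemia. AML1-ETO joins the DNA-binding domain of RUNX1 to most of RUNX1T1, and RUNX1 recognises a short motif whose common forms are TGTGGT and TGCGGT.

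The upstream sequences of MEIS1, PBX3 and PBX2 are shown because the induced protein carries the RUNX1 DNA-binding domain and these genes are the ones with array values. Each run is the 250 bases before the annotated start in RefSeq (GRCh38.p14), read 5′ to 3′ on the gene's own strand. Capitals mark TGTGGT or TGCGGT, searched on both strands. MEIS1 is at chr2:66434875-66435124 on the plus strand, PBX3 at chr9:125747933-125748182 on the plus strand, and PBX2 at chr6:32190203-32190452 on the minus strand.
MEIS1: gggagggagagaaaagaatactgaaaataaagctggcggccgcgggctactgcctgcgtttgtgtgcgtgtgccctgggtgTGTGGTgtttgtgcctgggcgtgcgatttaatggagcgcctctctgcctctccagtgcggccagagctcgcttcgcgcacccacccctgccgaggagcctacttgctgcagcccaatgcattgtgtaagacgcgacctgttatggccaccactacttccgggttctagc
PBX3: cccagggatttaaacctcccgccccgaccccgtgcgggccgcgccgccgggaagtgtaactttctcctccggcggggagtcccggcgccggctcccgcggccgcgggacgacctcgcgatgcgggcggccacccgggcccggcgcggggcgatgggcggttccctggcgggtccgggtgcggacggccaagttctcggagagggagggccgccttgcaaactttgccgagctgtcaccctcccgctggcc
PBX2: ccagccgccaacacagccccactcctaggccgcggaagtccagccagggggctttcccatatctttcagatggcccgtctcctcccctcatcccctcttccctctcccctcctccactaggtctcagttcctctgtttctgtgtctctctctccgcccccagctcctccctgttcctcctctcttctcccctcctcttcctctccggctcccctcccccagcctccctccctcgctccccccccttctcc
The MEIS1 sequence held 1 TGTGGT, on the gene's own strand and beginning 169 bases before the start. The PBX3 and PBX2 sequences held neither hexamer. Among 35116 RefSeq upstream sequences of the same length, 11% held TGTGGT, 5.84% held TGCGGT and 16.3% held at least 1 of them. The MEIS motif TGACAG was found once, on the opposite strand of PBX3 and beginning 20 bases before its start, where 13% of all upstream sequences held it. The HOX and PBX motif TGATTNAT was found in none of the 3, against 2.48% of all. The share of G and C was 59.6% in MEIS1, 75.6% in PBX3 and 64.8% in PBX2. These matches describe letters in a window, and no binding was measured.

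The label check used RUNX1T1, whose transcript the fusion contains. Its probe set 35641_g_at ranged from -398.60 to 91.4 in the 8 control arrays and read -116.50 and 86.1 in induced cells at 12 h. At 24 h it read 1592 in replicate 1 and -47.45 in replicate 2, and the means at 48 and 72 h were 6312 and 9479. The other 3 RUNX1T1 probe sets failed the filter on low values and overlapped between control and induced arrays, at most 352 (35638_at, a control), 101 (35639_at) and 16.6 (35640_at). The sources used here do not say which of them lie in the construct. Only 1 of the 2 induced arrays at 24 h therefore stood above every control. Member averages and list counts are thus also given over 48 and 72 h alone, an alternative chosen after seeing the data. For most other named genes the only average given is the one that includes 24 h. Of 18 myelomonocytic marker genes on the array, 9 were above the floor explained below on all 16 arrays, and CSF1R and ITGAM were above it on none. Their summed intensity was 41712 to 51814 in controls and 34540 to 51931 in induced cells. The sums overlapped between control and induced cells for 11 lymphoid genes (1539 to 3471 against 2018 to 3750), 6 erythroid and megakaryocytic genes (4636 to 6790 against 4616 to 6318) and 9 epithelial and fibroblast genes (5702 to 8186 against 5026 to 9121). In these lists 2, 2 and 3 genes were also above the floor on all 16 arrays. Single genes made up much of the last 2 sums, with control medians of 3978 for EPOR and 3830 for KRT8. None of the 5, 6 and 4 tested probe sets of the last 3 lists passed limma's test in the average over 24, 48 and 72 h. Of all tested probe sets 31.9% passed it. In the 3 lists 1, 2 and 1 had an unadjusted p under 0.05, beside 3266 of all 7824. With 48 and 72 h alone, 37.4% of all tested probe sets passed. Among them were 2 lymphoid probe sets, those of CD8A (0.84 on the log2 scale, adjusted p = 0.0401) and CD79A (-1.05, adjusted p = 0.0422).

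MEIS1 was the member that rose. Its intensity at 72 h was 3.73-fold higher in induced than in control cells, and at 24 h the values of both groups overlapped. MEIS1 encodes a cofactor that binds DNA with HOX and PBX proteins and is needed for growth in several leukaemia models. In controls, MEIS1 read 347 and 387 at 0 h, 303 and 199 at 24 h, 367 and 73.5 at 48 h, and 389 and 240.4 at 72 h (replicates 1 and 2 in each pair). In induced cells it read 114 and 95.5 at 12 h, 204 and 121 at 24 h, 691 and 535 at 48 h, and 933 and 1391 at 72 h. The 4 induced arrays of 48 and 72 h lay above all 8 controls, and both arrays of 12 h lay below every control except replicate 2 of 48 h. The shares of all tested probe sets with these patterns were not computed.

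**Figure D1:**
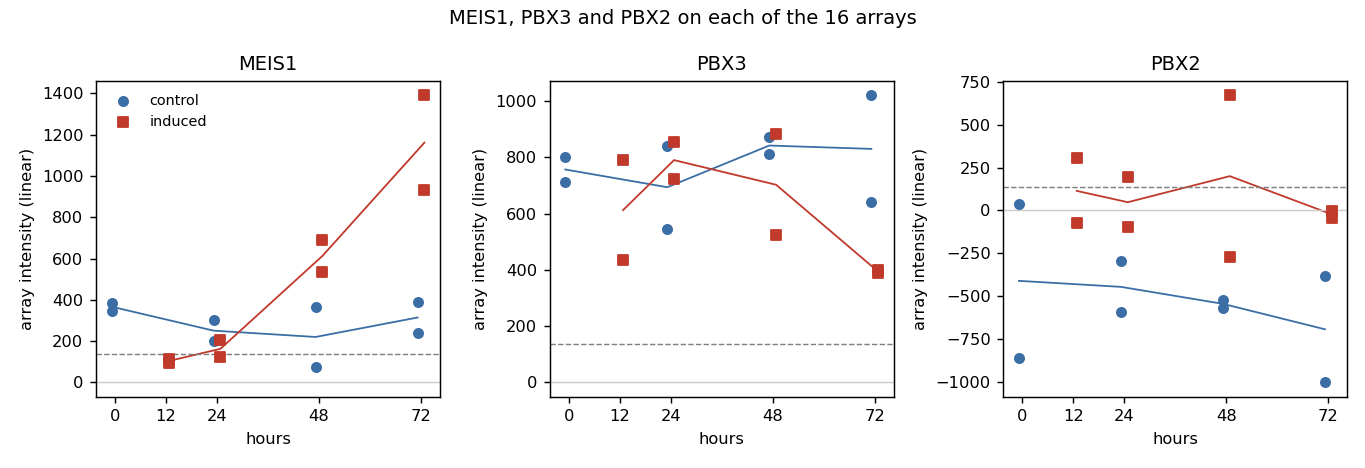
Linear intensity of MEIS1, PBX3 and PBX2 (y axis) against hours (x axis), 1 point per array, with circles for control and squares for induced cells. Lines join the means of the 2 replicates and the dashed line is the floor of 135.6. MEIS1 in induced cells reached 933 and 1391 at 72 h, PBX3 ended at 388 and 399.9, and most PBX2 values lay below 0.

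By group mean (SD, n = 2), MEIS1 was highest in induced cells at 72 h, 1162 ± 324, then at 48 h, 613 ± 111. Controls followed at 0 h with 367 ± 27.97, at 72 h with 315 ± 105, at 24 h with 251 ± 73.6 and at 48 h with 220.3 ± 208. Induced cells at 24 h, 163 ± 58.8, and at 12 h, 105 ± 12.8, were lowest. The replicate ranges of neighbours in this order did not overlap between induced 72 and 48 h, between induced 48 h and control 0 h, and between induced 24 and 12 h. All other neighbours overlapped.

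Values were set to a floor of 135.6 (the 40th percentile of all values) where they were lower, and log2 differences were tested with limma over 7824 probe sets with Benjamini-Hochberg adjustment. At 72 h the log2 difference in MEIS1 was 1.90 (95% interval 0.82 to 2.98, adjusted p = 0.0111), and 30% of all tested probe sets passed at that time, 16.1% as higher. Of all tested probe sets, 5.07% had a larger rise at 72 h. At 48 h the log2 difference was 1.45 (interval 0.36 to 2.53), at least 2.72-fold because 1 control lay at the floor, and the adjusted p was 0.0615. MEIS1 thus did not pass at 48 h, where 19.2% of tested probe sets did. With the replicate number as a block the adjusted p was 0.0473, without the mean-variance trend 0.0492 and with a floor at the 50th percentile 0.0185 (difference 0.89), and it passed under each. Both induced arrays lay above both controls at 48 and at 72 h, as for 25.8% of tested probe sets. Without control 72 h replicate 2 the 72 h difference was 1.55 (adjusted p = 0.0880), and without induced 72 h replicate 2 it was 1.61 (adjusted p = 0.0861), so the 72 h call rests on those arrays. It was also lost with the floor at the 30th percentile (adjusted p = 0.0561). At 48 h the difference was 2.16 (adjusted p = 0.0230) without control replicate 1 and 0.73 without control replicate 2, which was the control at the floor.

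Before 48 h the direction was the other one, without passing the test. The 24 h log2 difference in MEIS1 was -0.56 (interval -1.64 to 0.52, adjusted p = 0.993). No probe set of the 7824 passed limma's test at 24 h (0%), while 397 had an unadjusted p under 0.05. Induced cells at 12 h against control cells at 0 h gave -1.43 (interval -2.52 to -0.35), at least 2.70-fold lower with both 12 h arrays at the floor. The adjusted p was 0.129, at a time when 3.28% of tested probe sets passed and the median of all was -0.15. No 12 h control was analysed here, so the hours and the induction cannot be told apart in that comparison.

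The MEIS1 difference grew between 24 and 72 h. The 72 h effect exceeded the 24 h effect by 2.46 on the log2 scale (SE 0.71, adjusted p = 0.0339), and 14.5% of tested probe sets passed that comparison. Leaving out 1 array ended this call in 5 of 16 cases, namely control 24 h replicate 1 (2.15), control 72 h replicate 2 (2.11), either induced 24 h replicate (2.75 without replicate 1 and 2.16 without replicate 2) and induced 72 h replicate 2 (2.17). The call was also lost with the floor at the 30th percentile (adjusted p = 0.116), with no filter (0.0729), with quantile normalization (0.0617) and with median scaling (0.0545). The effects at 72 and 48 h differed by 0.45 (interval -1.08 to 1.98), a comparison that 0.486% of tested probe sets passed and MEIS1 did not. In limma's F test of the 3 effects together, which 10.9% of tested probe sets passed, the adjusted p of MEIS1 was 0.0728.

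Averaged over 24, 48 and 72 h, the MEIS1 difference was 0.93 (SE 0.29, interval 0.30 to 1.55, adjusted p = 0.0253), and it was the 1 member of 3 to pass. Of all tested probe sets 31.9% passed, 18.5% as higher, with a median difference of 0.10. The members' 1 of 3 is thus a share near that of all probe sets. The average is no bound in folds, since 1 induced 24 h array lay at the floor. With 48 and 72 h alone the difference was 1.67 (adjusted p = 0.00209), and 37.4% of all tested probe sets passed. With control 0 h as the baseline at every time it was 0.41 (interval -0.47 to 1.29, adjusted p = 0.542). The average call was also lost without control 24 h replicate 2 (0.83), control 48 h replicate 2 (0.69), control 72 h replicate 2 (0.81), induced 24 h replicate 1 (0.83), induced 48 h replicate 1 (0.87) or induced 72 h replicate 2 (0.83). Adjusted p in these 6 fits was 0.0602 to 0.0799. It was 0.0634 with a floor at the 30th percentile, 0.0552 with no filter, 0.0654 with quantile normalization and 0.0578 with median scaling, and the call was lost under each. The controls of MEIS1 did not pass the F test for change over time (adjusted p = 0.876), which 0.192% of probe sets passed.

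**Figure D2:**
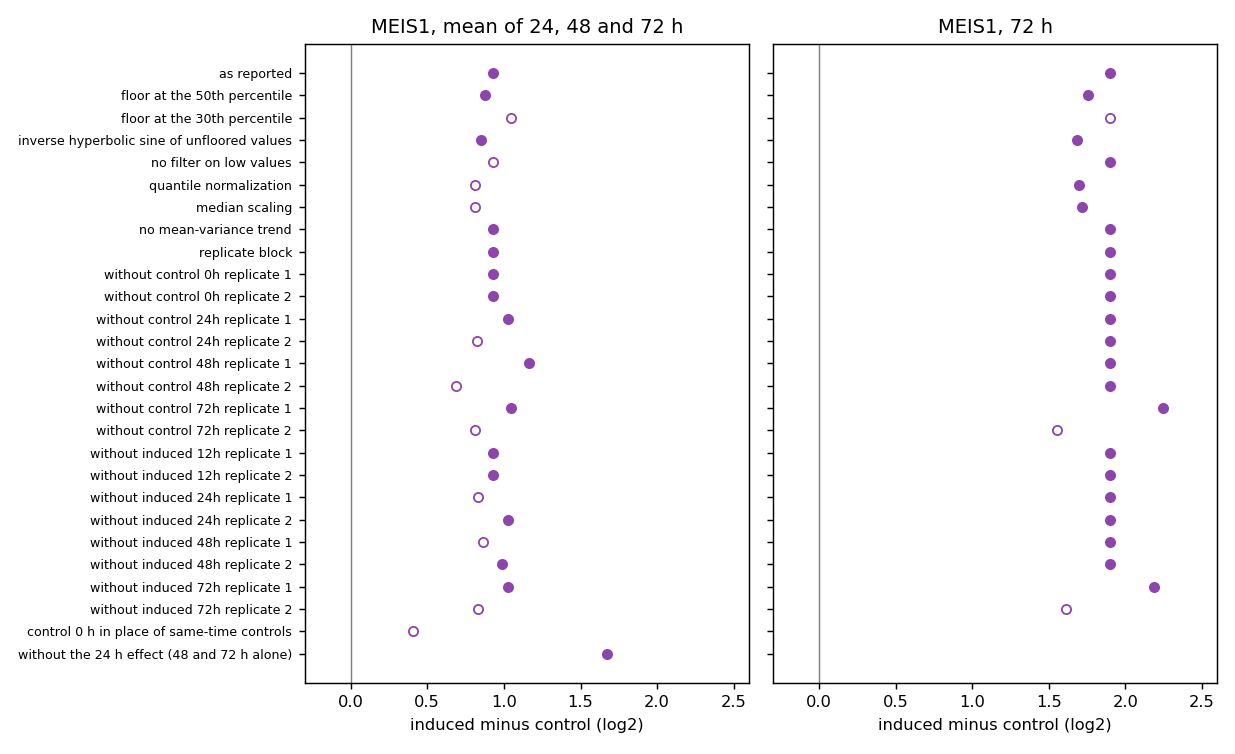
MEIS1 log2 difference, induced minus control (x axis), for the average of 24, 48 and 72 h (left) and for 72 h (right). The y axis lists the reported fit, the processing alternatives and the left-out arrays. The strict filter, which MEIS1 did not pass, is absent. The inverse hyperbolic sine alternative is in the units of that scale. Filled points passed an adjusted p of 0.05. All points lie above 0, from 0.41 to 1.67 on the left and from 1.55 to 2.24 on the right.

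PBX3 encodes a PBX protein that partners HOXA9 and MEIS1 in leukaemia models. It was above the floor on all 16 arrays, and its lowest group was induced cells at 72 h. In controls PBX3 read 712 and 802 at 0 h, 546 and 841 at 24 h, 871 and 812 at 48 h, and 639.8 and 1020.0 at 72 h. In induced cells it read 435 and 789.8 at 12 h, 856 and 724 at 24 h, 882 and 523 at 48 h, and 388 and 399.9 at 72 h. Both induced 72 h arrays lay below the other 14 arrays, the lowest of which read 435, and at every other time the groups overlapped. The share of tested probe sets lying below all other arrays in this way was not computed.

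The group means of PBX3 in controls were 757 ± 63.5 at 0 h, 694 ± 209 at 24 h, 842 ± 41.8 at 48 h and 829.9 ± 269 at 72 h (SD, n = 2). Those of induced cells were 612 ± 251 at 12 h, 790.0 ± 93.2 at 24 h, 702 ± 254 at 48 h and 394 ± 8.40 at 72 h. In order of these means only the step down to induced 72 h separated neighbours whose ranges did not overlap. At 72 h the log2 difference in PBX3 was -1.04 (SE 0.40, interval -1.90 to -0.17), 2.05-fold lower. It did not pass limma's test over all probe sets (adjusted p = 0.0683), where 13.9% passed as lower, and 26.7% of tested probe sets had both induced arrays below both controls. With quantile normalization the difference was -1.27 (adjusted p = 0.0134) and with median scaling -1.22 (adjusted p = 0.0195), and it passed under both. PBX3 differed by 0.22 at 24 h (interval -0.65 to 1.08), by -0.31 at 48 h (interval -1.18 to 0.56) and by -0.38 in the average (interval -0.88 to 0.12, adjusted p = 0.244). It differed by -0.67 over 48 and 72 h alone (adjusted p = 0.0803). The sign at 24 h turned without control replicate 1 (-0.10), and that at 48 h turned without induced replicate 2 (0.068).

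PBX2 encodes a broadly expressed PBX protein. Its probe set gave little signal: 12 of 16 values were below 0, and 3 arrays exceeded the floor, all of them replicate 2 of induced cells. Controls read -857.47 and 36.7 at 0 h, -593.57 and -297.41 at 24 h, -519.55 and -569.36 at 48 h, and -1002.54 and -383.03 at 72 h. Induced cells read -75.60 and 304 at 12 h, -98.65 and 195 at 24 h, -270.86 and 671 at 48 h, and -45.21 and -0.35 at 72 h. Both induced values lay above both controls at 24, 48 and 72 h, as for 7.82% of tested probe sets, with 10 of these 12 values below the floor. PBX2 passed the filter on low values through 2 induced arrays alone, so its presence among the tested probe sets already depended on induced values.

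After flooring, the log2 difference in PBX2 was 1.15 at 48 h (interval -0.14 to 2.45, adjusted p = 0.219), 0 at 72 h, where all 4 arrays lay at the floor, and 0.47 in the average (adjusted p = 0.331). Without induced 48 h replicate 1, leaving replicate 2 alone at 671, the 48 h difference was 2.31 (adjusted p = 0.00955) and the average 0.86 (adjusted p = 0.0210). Over 48 and 72 h alone the difference was 0.58 (adjusted p = 0.312). On an inverse hyperbolic sine scale, which keeps values below 0, the average difference was 2.27 in the units of that scale (adjusted p = 0.0335). No fold is given for PBX2, since the controls gave no signal above the floor.

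**Figure D3:**
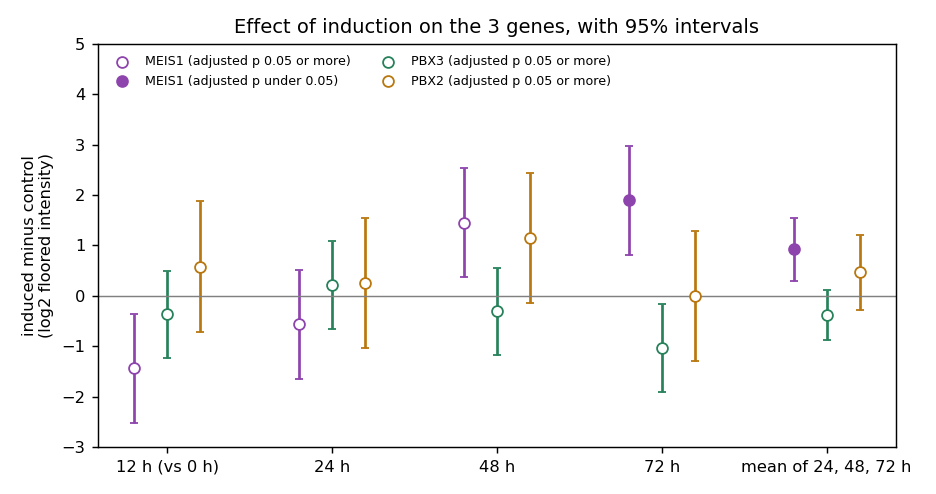
Induced minus control on the log2 scale of floored intensity (y axis) for MEIS1, PBX3 and PBX2 at each time and for the average of 24, 48 and 72 h (x axis), with 95% intervals from limma. Filled points passed an adjusted p of 0.05, and these are MEIS1 at 72 h (1.90) and in the average (0.93).

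Set side by side, the log2 differences at 72 h were 1.90 for MEIS1, -1.04 for PBX3, which did not pass, and 0 for PBX2, whose 4 arrays were all at the floor, beside a median of 0.18 over all tested probe sets. Across the 16 arrays, which share groups and controls, the Pearson correlation was -0.46 between MEIS1 and PBX3, -0.029 between MEIS1 and PBX2 and -0.13 between PBX3 and PBX2. The genes whose pattern over the 16 arrays was most like that of MEIS1 were IRF2 (r = 0.94), OS9 (r = 0.94) and DHRS1 (r = 0.93). At 72 h IRF2 was 0.74, OS9 0.41 and DHRS1 0.46 above control on the log2 scale, beside 1.90 for MEIS1.

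The list of other TALE genes had 7 probe sets on the array, of which 5 were tested. That of PKNOX1 and a further one of IRX5, 41348_at, failed the filter on low values. The list counted PBXIP1, which encodes a PBX-binding protein and not a TALE protein. Of the 5 tested, 2 (40%) were higher in the average and none was lower, beside 31.9% of all tested probe sets. These were PBXIP1 and IRX5, so IRX5 was the only TALE gene of the list to pass. Over 48 and 72 h alone, where 37.4% of all passed, the count was 3, with MEIS2 the further one. MEIS2 entered the tested probe sets through induced arrays alone, so that count rests in part on a gene tested only where it is high. Differences below are on the log2 scale unless a fold is given. PBXIP1, which encodes a protein that binds PBX proteins and blocks their binding to DNA, rose 3.03-fold in the average (log2 1.60, SE 0.34, adjusted p = 0.00243). Its values were 359 to 1508 in the 8 controls, 2314 and 3193 in induced cells at 48 h, and 4577 and 5043 at 72 h. At 72 h PBXIP1 was 5.44-fold higher (adjusted p = 0.00601), and all induced arrays of 48 and 72 h exceeded all controls. For 25.8% of tested probe sets both induced arrays lay above both same-time controls at 48 and 72 h. The share above all controls was not computed. The call on the PBXIP1 48 h difference of 1.88 (adjusted p = 0.0383) was lost without any 1 of 7 arrays. The difference was 0.85 without control 48 h replicate 2, 1.65 without induced 48 h replicate 2 and 2.11 without induced 48 h replicate 1. The other 4 arrays, both 72 h replicates of each kind, left the 48 h difference at 1.88 and moved its adjusted p to between 0.0520 and 0.0582. The call was also lost with no filter (adjusted p = 0.128), median scaling (0.0551) and no mean-variance trend (0.0588).

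IRX5, a homeodomain gene of the Iroquois family, was 0.75 higher in the average (adjusted p = 0.0286) and 1.23 higher at 72 h (adjusted p = 0.0396). Its average call was lost without any 1 of 7 arrays, the values being 0.52 without control 48 h replicate 2, 0.65 without induced 48 h replicate 1, 0.67 without induced 24 h replicate 1 and 0.70 without induced 72 h replicate 1. The values were 0.72 without control 24 h replicate 1, 0.74 without control 72 h replicate 1 and 0.76 without control 72 h replicate 2. The 72 h call of IRX5 was lost without any 1 of the 4 arrays of 72 h, at 1.07 to 1.39. With no filter, quantile normalization and median scaling both IRX5 calls were lost as well (adjusted p 0.0605, 0.0672 and 0.0687 in the average, 0.0787, 0.0773 and 0.0767 at 72 h). With control 0 h as the baseline the IRX5 average was 0.14 (adjusted p = 0.824). MEIS2, the paralogue of MEIS1, had values of -47.55 to 209 in controls, 200.3 and 309 in induced cells at 48 h, and 356 and 299 at 72 h. It was 0.75 higher in the average (adjusted p = 0.0502) and 1.27 higher at 72 h (adjusted p = 0.0571), neither of which passed. MEIS2 exceeded the level of the filter on 4 arrays, all of them induced, so like PBX2 it was tested only through the group where it is high. The average of MEIS2 passed without either control 0 h array, either induced 12 h array or induced 48 h replicate 1 (adjusted p 0.0205 to 0.0490), and so did 72 h without either induced 12 h array. TGIF2, which encodes a TALE repressor, differed by -0.078 in the average and TGIF1 by 0.17, and neither passed.

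**Figure D4:**
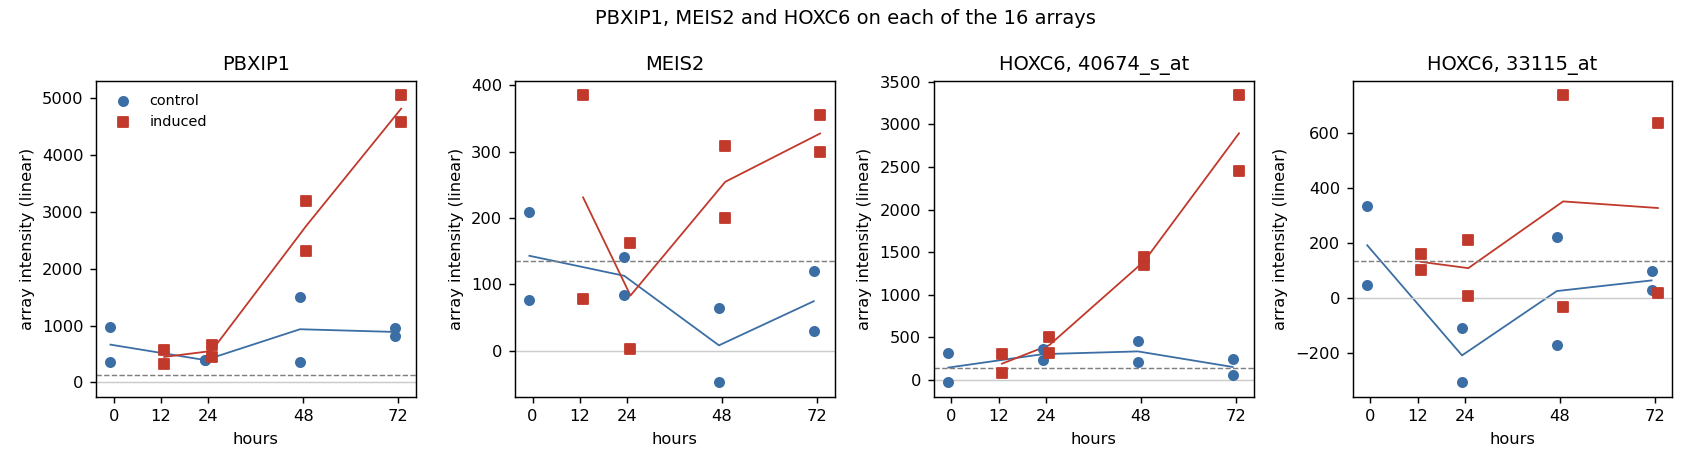
Linear intensity (y axis) against hours (x axis) for PBXIP1, MEIS2 and both tested HOXC6 probe sets, with circles for control and squares for induced arrays, lines through the means of 2 replicates and the floor of 135.6 dashed. PBXIP1 reached 4577 and 5043 and HOXC6 probe set 40674_s_at 2450.0 and 3340.3 at 72 h, while HOXC6 probe set 33115_at read 18.4 and 634.

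Of the HOX genes outside the list of 8, 18 had a probe set, with 23 probe sets in all. Of these 13 were tested and 2 (15.4%) were higher in the average, none lower, beside the 31.9% of all probe sets. Over 48 and 72 h alone, where 37.4% of all tested probe sets passed, the HOX count was again 2. HOXC6, a HOXC cluster gene, was the larger of these, with probe set 40674_s_at at -29.31 to 461 in controls, 1343 and 1443 in induced cells at 48 h and 2450.0 and 3340.3 at 72 h. Its induced arrays of 48 and 72 h lay above all 8 controls. Both induced arrays lay above both same-time controls at 48 and 72 h for 25.8% of tested probe sets. The share above all 8 controls was not computed. The log2 difference was 2.19 in the average (at least 4.57-fold, adjusted p = 0.000213) and 3.98 at 72 h (at least 15.8-fold, adjusted p = 0.00016). The 72 h effect of HOXC6 exceeded the 24 h effect by 3.55 (adjusted p = 0.0100). At 48 h the difference was 2.17 (adjusted p = 0.0179), and that call was lost without control 48 h replicate 2 (1.59), induced 48 h replicate 1 (2.22) or induced 48 h replicate 2 (2.11). It was also lost with the floor at the 30th percentile (adjusted p = 0.163) and with no filter (0.0597).

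The probe sets of HOXC6 did not give the same picture. Probe set 33115_at read -34.65 and 735 in induced cells at 48 h and 18.4 and 634 at 72 h, and its average difference of 0.76 did not pass (adjusted p = 0.225). It passed without induced 48 h replicate 1 (1.17, adjusted p = 0.0470). A further HOXC6 probe set, 40675_r_at, was below the filter, with values from -1600.19 to 73.1. HOXC5, which lies in the same cluster, was 1.49 higher in the average (adjusted p = 0.0127, and 0.0618 with no filter). Its controls read 1316 and 2393 at 0 h and -196.92 to 915 afterwards, and its induced arrays read 661 to 1576. Against control 0 h the HOXC5 difference was -0.62 (adjusted p = 0.508), so its direction depended on which controls were used. In all 10 of the 23 HOX probe sets, 40675_r_at among them, lay below the filter and were not tested.

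**Figure D5:**
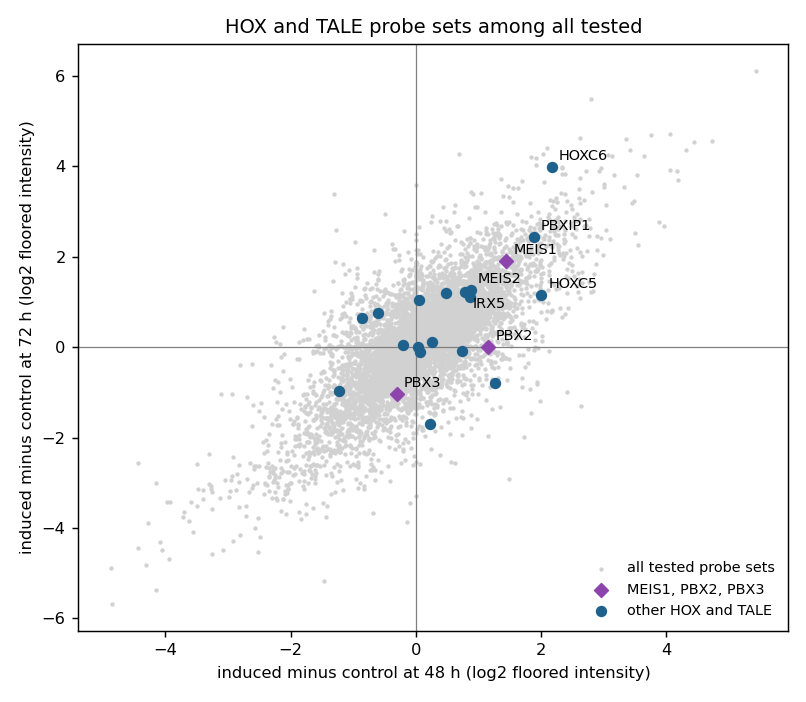
Induced minus control at 72 h (y axis) against that at 48 h (x axis), both on the log2 scale of floored intensity. Grey points are all 7824 tested probe sets and diamonds the 3 members. Dark circles are other HOX and TALE probe sets, with PBXIP1 counted among them. HOXC6 at 3.98, PBXIP1 at 2.44 and MEIS1 at 1.90 were high at 72 h, and PBX3 was at -1.04.

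Genes known to act on HOX and MEIS1 expression were described from lists. Of 23 tested probe sets of activators, 9 (39.1%) changed in the average, 8 higher and 1 lower, with a median difference of 0.37, beside 31.9% and 0.10 for all tested probe sets. The count was also 9 over 48 and 72 h alone, where 37.4% of all tested probe sets passed. KMT2A, the histone methyltransferase that maintains HOXA and MEIS1 expression, was 1.01 higher (adjusted p = 0.00613). KAT6A, a histone acetyltransferase, was 0.94 higher (adjusted p = 0.000274, and 1.37 by its other probe set, adjusted p = 0.0168) and AFF1, a component of the super elongation complex, 0.85 higher (adjusted p = 0.000263). PSIP1, which tethers KMT2A complexes to chromatin, fell by 0.54 by 1 probe set (adjusted p = 0.000598) and differed by -0.19 by another, which did not pass (adjusted p = 0.629).

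Of 18 tested probe sets of repressors, 8 (44.4%) changed in the average, 6 higher and 2 lower, with a median of 0.25, beside the same 31.9% and 0.10. Over 48 and 72 h alone, where 37.4% of all tested probe sets passed, 9 of the list passed, 7 higher and 2 lower. KDM5B, a histone demethylase, was 1.69 higher (adjusted p = 0.000315), CBX7, a Polycomb protein, 1.39 higher (adjusted p = 0.0011) and PCGF2, another Polycomb protein, 0.66 higher (adjusted p = 7.78e-05). For CBX7, 1 control and 1 induced array lay at the floor. The Polycomb gene CBX6 fell by 1.03 (adjusted p = 0.000716). YY1, a zinc finger protein, fell by 1.06 by 1 probe set (adjusted p = 0.000266) and differed by -0.30 by another, which did not pass (adjusted p = 0.496). Against control 0 h, the rises of KMT2A (0.80, adjusted p = 0.136), KAT6A (0.35, adjusted p = 0.283), AFF1 (0.15, adjusted p = 0.627), KDM5B (0.83, adjusted p = 0.159), CBX7 (0.90, adjusted p = 0.119) and PCGF2 (0.28, adjusted p = 0.156) did not pass.

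Genes reported as targets of HOX, MEIS and PBX proteins gave 50 tested probe sets. Of these 25 (50%) changed in the average, 6 higher and 19 lower, beside 31.9% of all tested probe sets. The median was -0.33, beside 0.10 for all. Over 48 and 72 h alone, where 37.4% of all tested probe sets passed, 26 of the list passed, 6 higher and 20 lower. By gene, 5 of 25 tested were higher and 10 lower, and several genes had more than 1 probe set. TRIB2, a pseudokinase gene that MEIS1 activates in leukaemia models, was at least 1.66 higher on the log2 scale by 1 probe set (adjusted p = 0.000793). In that probe set 4 of the 6 controls of 24, 48 and 72 h lay at the floor. By another probe set TRIB2 was 0.77 higher (adjusted p = 0.0155). LMO2, a haematopoietic transcription cofactor, was 2.22-fold higher (adjusted p = 4.37e-05). CDKN1A, the cyclin-dependent kinase inhibitor p21, was 2.82 higher on the log2 scale (adjusted p = 4.75e-07). All 6 of its controls of 24, 48 and 72 h and 2 induced arrays were at the floor. None of those 6 controls could bring it through the filter on low values. MYC fell by 2.31 on the log2 scale (adjusted p = 2.08e-08), and its 4 probe sets, which all passed, lay between -3.37 and -1.93. The kinase gene PIM1 fell by at least 1.90 by 1 probe set (adjusted p = 4e-05), with 1 induced array at the floor. By another probe set it fell by 0.48 (adjusted p = 0.00246). BCL2, the inhibitor of apoptosis, was 4.03-fold lower by 1 probe set (adjusted p = 2.95e-06), while the other 3 did not pass. At 24 h no probe set of the activator, repressor and target lists passed limma's test. Of their 23, 18 and 50 tested probe sets, 1, 1 and 10 had an unadjusted p under 0.05, beside 397 of all 7824.

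Myelomonocytic markers moved in the same arrays, and their part in the MEIS1 and PBX3 values was not tested. Of 22 tested probe sets of that list, 14 (63.6%) changed in the average, 8 higher and 6 lower, beside 31.9% of all tested probe sets. Over 48 and 72 h alone 14 passed, beside 37.4% of all. The granule protease genes CTSG and PRTN3 were 4.36-fold and 2.87-fold lower, and the transcription factor gene SPI1 was at least 5.49-fold lower. The growth factor receptor gene CSF3R was 2.24-fold higher and PTPRC, which encodes CD45, 1.59-fold higher. Their other probe sets passed in the same direction, CTSG at -1.30, CSF3R at 0.69 and PTPRC at 1.06 and 1.09 on the log2 scale. ITGAX, an integrin gene, was 1.92 higher on the log2 scale, with all 6 controls and 1 induced array at the floor. With control 0 h as the baseline, the rises of ITGAX (1.04, adjusted p = 0.101) and PTPRC (0.42, adjusted p = 0.0530) did not pass.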

How the data were processed

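The authors deposited 1 linear intensity for each probe set on each array. Per the labels each array had a scale factor (0.785 to 1.22). The software behind the values was not given in the sources used here. All 16 arrays had a mean of 1371, medians of 220.3 to 337.5 and 22.6% to 33.9% of values below 0, and replicates correlated at 0.966 to 0.991. The members and gene lists were chosen with earlier results of these data known. Symbols came from the platform annotation, which can be old: 10961 probe sets had 1 symbol, 546 several and 1119 none.

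Values were floored at 135.6 (40th percentile) and log2 transformed. Probe sets with at least 2 arrays above 292.7 (the median of all values) were tested, 7824 in all, without 67 control probe sets; all 3 members were tested. limma 3.58.1 in R 4.3.3 fitted 1 mean per group (lmFit, eBayes with trend, 8 residual degrees of freedom), with two-sided tests and Benjamini-Hochberg adjustment over all tested probe sets, called at an adjusted p under 0.05. Folds come from fitted log2 means, and "at least" marks arrays at the floor on the lower side alone. The scripts were tested on simulated data. The number of arrays limits the precision.

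Named genes were every member probe set, of each other list the up to 3 largest rises and 3 largest falls among genes that passed in the average (1 probe set per gene), the 3 genes most correlated with a member that passed, and RUNX1T1. MEIS2, TGIF1, TGIF2, PKNOX1 and probe sets that disagree with a named one or failed the filter were added after their values were seen. Alternatives were other floors, filters, scalings and scales, no trend, a replicate block, control 0 h as the baseline and leaving out each array. Same-numbered replicates deviated together at most weakly (r -0.15 to 0.25 over 28 pairs of groups, median 0.071, 7 above 0.1). The numbers were therefore not taken as pairs in the reported fit.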

Additional observations from a re-analysis of the deposited data

Results flagged for a closer look

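MEIS1 and HOXC6 differed from control by different amounts at different times, by a test of the difference itself. The MEIS1 effect at 72 h exceeded that at 24 h by 2.46 on the log2 scale (limma adjusted p = 0.0339). That call was lost in 9 of 24 alternatives (adjusted p 0.00328 to 0.13 over all of them), and limma's F test of its 3 effects did not pass (adjusted p = 0.0728). For HOXC6 probe set 40674_s_at the corresponding value was 3.55 (adjusted p = 0.0100), and limma's F test of its effects at 24, 48 and 72 h gave an adjusted p of 0.0309. RUNX1T1 had risen on 1 of 2 induced arrays at 24 h.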

How the results depend on the processing

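Of the 3 members, 1 passed in the average. That count was 0 with the floor at the 30th percentile, with no filter on low values, with a strict filter (which MEIS1 and PBX2 did not pass), with quantile normalization, with median scaling and against control 0 h. It was 2 on the inverse hyperbolic sine scale (MEIS1 and PBX2), and 0 to 1 when 1 array was left out. In the fit without induced 48 h replicate 1, the member counted was PBX2 and not MEIS1, with PBX2 resting at 48 h on replicate 2 alone at 671. PBX2 entered the tested probe sets through 2 induced arrays alone. Its calls on this and on the inverse hyperbolic sine scale therefore depend on the arrays where it is high. At 72 h the count was 1, with 0 under the 30th percentile floor and under the strict filter, 2 under quantile normalization and median scaling (MEIS1 and PBX3), and 0 to 1 when 1 array was left out. At 48 h it was 0, with 1 (MEIS1) under a floor at the 50th percentile, without the mean-variance trend and with the replicate block, and 0 to 1 when 1 array was left out. For effects that differ between times it was 0, with 1 under the 50th percentile floor and 0 to 1 when 1 array was left out. Counts at 24 h, at 12 h against 0 h and for control drift stayed at 0 in the 25 alternatives run for each.

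With the replicate block the MEIS1 effect at 48 h had an adjusted p of 0.0473 and HOXC5 at 48 h one of 0.0439, and each value was as without the block. Signs turned for PBX3 at 24 h without control replicate 1 (-0.10, with -0.10 to 0.53 over all arrays left out in turn), PBX3 at 48 h without induced replicate 2 (0.068, range -0.69 to 0.068), HOXC5 in the average against control 0 h (-0.62) and HOXC6 probe set 33115_at at 48 h without induced replicate 2 (-0.35, range -0.35 to 2.08). Of all calls in the average, 58.1% were higher in induced cells as deposited, 50.8% after quantile normalization and 45.5% after median scaling. The cause of these changes was not tested, except that the strict filter tests fewer probe sets. With 1 array left out, the lone replicate is assumed to vary like the other groups. Signal near the floor limits MEIS1 before 48 h and PBX2 throughout.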
